A study of Mus musculus with 6 samples.

Results

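The genes described here build and supply the brush border, the carpet of microvilli on the apical face of enterocytes. The set of 32 genes was chosen by name: actin bundlers and their membrane linkers, tip proteins, the adhesion complex between microvilli, motor proteins, the terminal web under the microvilli, and the traffic machinery that brings membrane to the apical surface. All 32 were measured above the filter on dim probe sets, among 12994 genes tested in all, and they were read by 58 kept probe sets of 62 that the platform annotation pairs with only 1 of them.

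Transcript levels came from small intestinal epithelial cells of C57BL/6 mice (14 days old), detached with EDTA and profiled on Affymetrix mouse arrays, 1 array per sample. The replacement group (3 arrays) had the genotype Ecadflox/Ncad;Vil-Cre: N-cadherin, a cadherin of neural and mesenchymal cells, stood in for E-cadherin, the main cadherin of epithelial adherens junctions, in cells in which Cre recombinase is driven by regulatory sequence of the villin gene. The control group (3 arrays) came from littermates that kept E-cadherin, and the labels do not say which of the floxed allele, the N-cadherin allele or Vil-Cre they carried. The labels do not say whether animals were pooled, so a p-value here reflects only the scatter among the samples, which may be technical.

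In an enterocyte each microvillus holds a bundle of actin filaments crosslinked by villin, espin and plastin. Ezrin and class I myosins tie the bundle to the membrane, protocadherins join neighbouring microvilli at their tips, and the roots of the bundles sit in a web of spectrin and myosin II. Vesicles carrying the small GTPases Rab11a and Rab8a move on myosin Vb and fuse with the apical membrane through syntaxin 3. In people, mutations of MYO5B or STX3 cause microvillus inclusion disease, in which enterocytes lose apical microvilli.

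The log2 ratio of control 2 and control 3 had an SD of 0.115 over bright probe sets, against 0.347 to 0.564 for the other pairs within a group. For spiked-in hybridization controls, a measure of array noise, the SD was 0.0812 to 0.134 over the array pairs and 0.0824 for this pair. Control 2 and control 3 thus lay within the range of array noise over all pairs, but above that of their own pair. They were averaged and counted as 1 sample, so that n = 3 replacement and 2 control replicates. Cdh1, the gene of E-cadherin, fell 2.09-fold in the replacement samples (limma adjusted p = 0.0250, but 0.213 without control 1), and both Cdh2 probe sets were below the floor of 16 intensity units on all arrays, which checks the labels only in part. By Xist and Y-linked transcripts replacement 2, replacement 3 and control 1 were female and replacement 1, control 2 and control 3 male. Over bright probe sets replacement 1 lay nearest to the controls: its log2 ratios to them had SDs of 0.528 to 0.542. Those of replacement 2 were 0.710 to 0.733 and those of replacement 3 were 0.639 to 0.670. Within the replacement group, sex and this nearness cannot be told apart. Epithelial markers were measured for 7 of 7 listed genes, with summed intensities of 23022 to 29280 in replacement and 19107 to 20360 in control arrays. Among markers of other cells, 5 of 9 listed leukocyte genes, 7 of 10 fibroblast and muscle genes and 3 of 4 endothelial genes passed the filter. Cd3e, Cd3g, Itgam, Pdgfra, Myh11, Tagln and Pecam1 did not. The summed endothelial markers lay at 81.0 to 141 in replacement and 89.5 to 147 in control arrays. The summed fibroblast and muscle markers lay at 496 to 571 in replacement and 315 to 1279 in control arrays, where control 1 was the highest.

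The comparison asked which brush border transcripts change once N-cadherin takes the place of E-cadherin. The plastin Pls3 and the actin nucleator Cobl rose, the PDZ scaffold Pdzk1 fell, and the other 29 genes did not pass the test (limma with Benjamini-Hochberg adjustment over all genes, adjusted p under 0.05). That is 3 of 32 genes, or 9.38%, where 9.12% of all genes tested were called, so the share called lay near the background under this filter. In the higher direction 2 of 32 passed (4.46% of all genes) and in the lower direction 1 of 32 (4.66% of all genes). Without adjustment, 4 genes of the set were higher and 6 lower at p under 0.05 (12.5% and 18.8%), where 11.4% and 12.9% of all genes were. The median log2 difference of the 32 genes, replacement minus control, was -0.21, and that of all genes was -0.02. Below 0 lay 23 of the 32 differences, against 52.0% of all genes. The background share depends on the filter: with 64 reached in at least 3 arrays, 650 of 8375 genes were higher and 655 lower. The same 3 of the 32 genes passed there.

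**Figure D1:**
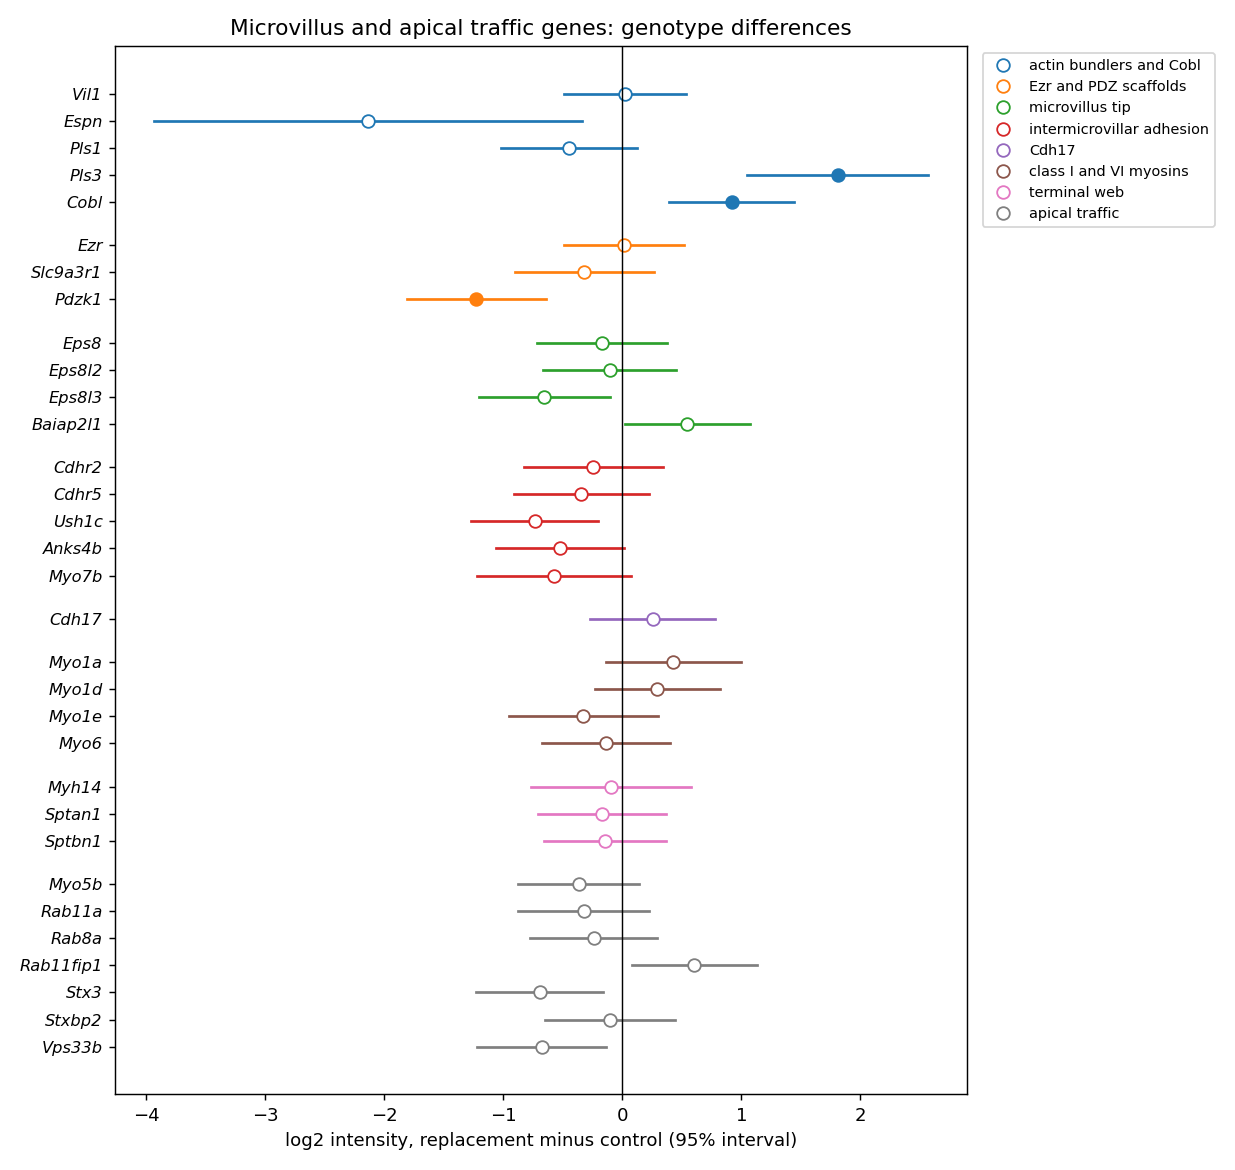
Log2 intensity differences, replacement minus control, of the 32 genes (x axis) with 95% intervals from the limma fit as bars, grouped by role (n = 3 replacement and 2 control replicates). Filled circles passed the test and open circles did not: Pls3 stands at 1.81, Cobl at 0.92 and Pdzk1 at -1.23, and the interval of Espn is the widest.

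Replacement and control arrays stood apart for 5 genes that were higher and 11 that were lower in the replacement samples (15.6% and 34.4% of the set), where 17.8% and 18.8% of all genes stood apart in those directions. For 22 of the 32 genes the 95% interval of the difference held 0. For 19 of the 29 genes that did not pass, the interval lay within 1 on the log2 scale in both directions, so a 2-fold change lay outside it. In such detached fractions fewer cells of a type and less RNA per cell cannot be told apart.

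The promoters of the genes that passed are shown with those of Vil1 and Pls1, bundlers that did not. RefSeq windows of 300 bases (GRCm38.p6, 250 before to 50 after the transcription start) were matched for 25 of the 32 genes, and the first listed window of a gene is printed. Capitals mark 3 short motifs on either strand, kept from a wider search after the windows had been read: GGAATG (bound by TEAD factors), CATATAAGG (most of a site of serum response factor) and CAAAGTCCA (HNF4).
Pls3, chrX:75875133-75875432, minus strand: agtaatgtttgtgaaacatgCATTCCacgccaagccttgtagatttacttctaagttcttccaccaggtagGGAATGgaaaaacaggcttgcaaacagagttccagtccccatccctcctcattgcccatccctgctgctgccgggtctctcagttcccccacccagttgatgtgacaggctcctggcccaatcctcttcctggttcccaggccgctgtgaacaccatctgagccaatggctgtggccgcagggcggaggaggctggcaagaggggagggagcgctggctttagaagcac
Cobl, chr11:12464911-12465210, minus strand: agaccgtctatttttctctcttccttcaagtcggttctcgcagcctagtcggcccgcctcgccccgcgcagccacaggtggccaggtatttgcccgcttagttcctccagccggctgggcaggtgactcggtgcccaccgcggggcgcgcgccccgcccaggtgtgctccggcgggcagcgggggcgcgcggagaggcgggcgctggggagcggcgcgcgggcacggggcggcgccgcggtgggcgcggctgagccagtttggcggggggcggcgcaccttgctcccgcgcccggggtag
Pdzk1, chr3:96829815-96830114, plus strand: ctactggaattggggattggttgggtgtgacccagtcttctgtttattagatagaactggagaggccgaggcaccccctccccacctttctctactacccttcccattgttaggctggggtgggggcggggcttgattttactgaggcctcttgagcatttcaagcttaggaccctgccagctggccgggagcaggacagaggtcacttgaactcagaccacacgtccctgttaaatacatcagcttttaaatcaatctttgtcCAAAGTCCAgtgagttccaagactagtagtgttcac
Vil1, chr1:74409134-74409433, plus strand: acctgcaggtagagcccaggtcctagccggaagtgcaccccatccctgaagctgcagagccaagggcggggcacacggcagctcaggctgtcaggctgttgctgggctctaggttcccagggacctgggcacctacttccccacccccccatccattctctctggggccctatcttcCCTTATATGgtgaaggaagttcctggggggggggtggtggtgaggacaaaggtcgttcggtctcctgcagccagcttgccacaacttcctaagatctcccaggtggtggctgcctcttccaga
Pls1, chr9:95845230-95845529, minus strand: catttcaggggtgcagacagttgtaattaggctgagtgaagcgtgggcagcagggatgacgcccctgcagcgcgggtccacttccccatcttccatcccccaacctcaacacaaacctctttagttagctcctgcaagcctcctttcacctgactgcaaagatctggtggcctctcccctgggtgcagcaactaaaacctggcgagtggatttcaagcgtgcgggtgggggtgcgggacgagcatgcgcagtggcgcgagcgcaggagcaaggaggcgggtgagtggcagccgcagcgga
The Pls3 window holds GGAATG on both strands, first bases at -230 and -179 from the start, letters that 14.7% of all windows hold. The Pdzk1 window holds CAAAGTCCA at 15 after the start (0.475% of all windows). The Vil1 window holds the reverse complement of CATATAAGG at -73 (0.134% of all windows). The printed windows of Cobl and Pls1 hold none of the 3. Among the 25 genes GGAATG was found for 5, of which Cobl holds it in its other window. These matches describe letters and not sites.

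Among the actin bundlers Pls3 rose and its paralog Pls1 did not pass; the difference between the plastins was not tested. Pls3 (plastin 3, a fimbrin crosslinker that many solid tissues express) had intensities of 194, 322 and 448 in replacement arrays 1 to 3, against 83.0, 90.0 and 91.2 in the control arrays. All replacement arrays lay above all control arrays. The lowest of them was replacement 1, the male one, which lay nearest to the controls over bright probe sets. The rise was 3.50-fold (log2 difference 1.81, SE 0.339, n = 3 and 2, limma adjusted p = 0.0113). Pls3 lies on the X chromosome: within females the log2 difference was 2.19 and within the male samples 1.10. The limma interaction with sex did not pass. That fit had replacement 1 alone as male replacement sample and 1 control replicate of each sex, so it says little about a sex difference. Pls1, the plastin of the brush border, had 2112, 1655 and 2478 in the replacement arrays and 2763, 2871 and 2808 in the control arrays. The groups did not overlap, but the log2 difference of -0.45 (95% interval -1.02 to 0.12) did not pass (adjusted p = 0.320).

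Vil1 (villin), which bundles actin in microvilli and severs it at high calcium, had 3259, 2768 and 3143 in the replacement arrays, against 2897, 3054 and 3140 in the control arrays. The groups overlapped, and the log2 difference was 0.03 with a 95% interval of -0.49 to 0.54. Espn (espin), the bundler that lengthens microvilli, had 200, 48.5 and 10 in replacement arrays 1 to 3, against 211, 263 and 267 in the control arrays. The male replacement array, replacement 1, lay close to the controls and the female ones far under them, replacement 3 under the floor. Replacement 1 was also the nearest to the controls over bright probe sets. With that array set to the floor the log2 difference was -2.14 (SE 0.800, adjusted p = 0.136), and the SD within the replacement group was 1.83 on the log2 scale. Without replacement 1 it was -3.09 and passed (adjusted p = 0.0102), and without replacement 3, the array under the floor, it was -1.26 and did not (adjusted p = 0.331). Within females it was -2.92 and within the male samples, with replacement 1 as the only replacement array, -0.41. The limma interaction with sex did not pass, with the same limit as for Pls3.

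Cobl (cordon-bleu) nucleates actin filaments and lies at the base of microvilli in enterocytes. Its intensities were 173, 163 and 147 in the replacement arrays and 93.1, 77.4 and 77.7 in the control arrays. No replacement array reached down to the controls, and the rise was 1.89-fold (log2 difference 0.92, SE 0.233, adjusted p = 0.0400). The log2 difference was 0.73 within females (replacement 2 and replacement 3) and 1.16 within males (replacement 1 alone), each set against 1 control replicate.

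Of the linkers between bundle and membrane, Ezr (ezrin, which binds actin at one end and membrane proteins at the other) had 2109, 1923 and 2145 in the replacement arrays and 2000, 2097 and 2058 in the control arrays, a log2 difference of 0.01 (95% interval -0.49 to 0.52). Pdzk1, a scaffold with PDZ domains that holds apical transporters, had 833, 611 and 553 in the replacement arrays, against 1431, 1617 and 1669 in the control arrays. The groups stood well apart, and the level fell 2.34-fold (log2 difference -1.23, SE 0.260, adjusted p = 0.0193). The log2 fall was 1.30 within females and 0.98 within males, where replacement 1 was the only replacement array. Slc9a3r1 (NHERF1 or EBP50), the related scaffold that binds ezrin, had 3904, 2744 and 2594 in the replacement arrays and 3633, 3845 and 3997 in the control arrays. Replacement 1 lay among the controls and the other replacement arrays under them, with a log2 difference of -0.32 (adjusted p = 0.510). Its 3 probe sets gave -0.32, -0.51 (by a probe set that may cross-hybridize) and -0.91, all in one direction.

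**Figure D2:**
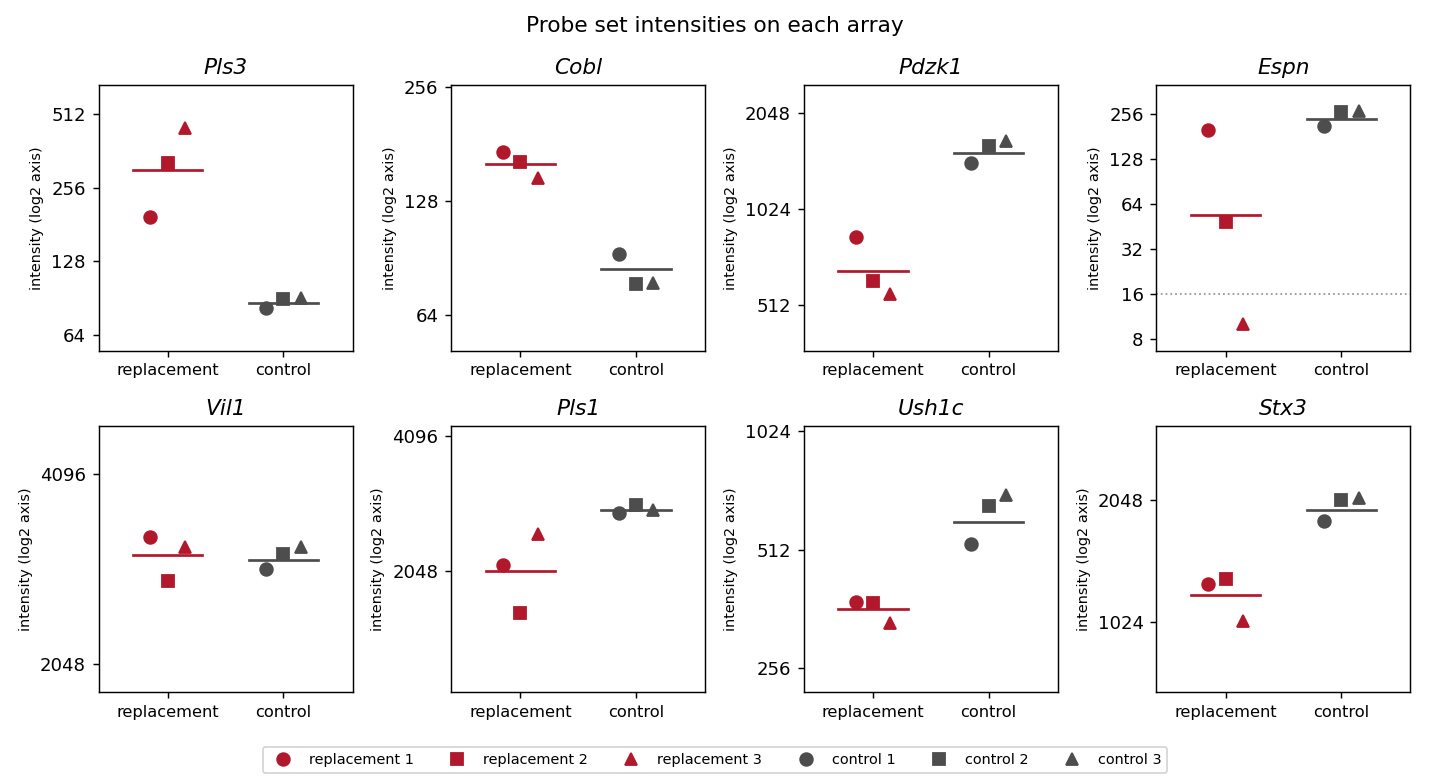
Probe set intensities of 8 genes on each array (y axis, log2 scale; circles, squares and triangles are replicates 1, 2 and 3), with the replacement group in red left of the control group in grey. Horizontal lines are group geometric means over 3 replacement and 2 control replicates, and the dotted line is the floor of 16. Pls3 and Cobl are higher in every replacement array, Pdzk1 is lower in each, and Espn spreads from 200 to 10 within the replacement group.

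The calls of these 3 genes depended on the samples used. By limma each was lost without replacement 2 (adjusted p = 0.0510 for Pls3, 0.116 for Cobl and 0.0748 for Pdzk1) and without replacement 3 (0.0593, 0.103 and 0.0948). Each was also lost when dim probe sets were kept too (0.197, 0.0983 and 0.148). Leaving out control 1, or control 2 and control 3 together, left 1 control replicate. The 3 calls were lost there too, but few of all genes passed in those fits. The log2 differences of Pls3, Cobl and Pdzk1 were 1.74, 1.05 and -1.33 without control 1. They were 1.87, 0.79 and -1.13 without control 2 and control 3. The direction was kept in all 17 alternatives. Cobl also lost its call without replacement 1 (adjusted p = 0.0528) and when arrays were scaled to their medians (adjusted p = 0.0720).

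None of the 4 genes of the microvillus tip passed by limma, and at an unadjusted p under 0.05 there was 1 in each direction. Baiap2l1 (IRTKS), which bends membrane and recruits Eps8, had 841, 996 and 956 in the replacement arrays and 691, 584 and 585 in the control arrays, without overlap (log2 difference 0.55, adjusted p = 0.185). A second probe set gave 0.10. The family of Eps8, which caps and bundles filaments at the tip, gave unlike values: Eps8l3 had 1506, 1341 and 1112 in the replacement arrays, all under the 2241, 1870 and 1924 of the control arrays (log2 difference -0.66, adjusted p = 0.136). Eps8 itself (-0.17) and Eps8l2 (-0.11, by a probe set that related transcripts may share) overlapped between the groups. Another Eps8 probe set gave 0.095.

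The adhesion complex that joins microvilli at their tips had all 5 differences below 0, from -0.73 to -0.24, and none passed by limma (1 was lower at an unadjusted p under 0.05). Its protocadherins were the least different: Cdhr2 had 2562, 1661 and 2222 in the replacement arrays and 2368, 2605 and 2686 in the control arrays (log2 difference -0.24, adjusted p = 0.630). Cdhr5 had 3138, 2418 and 2265 in the replacement arrays and 2968, 3536 and 3684 in the control arrays (-0.34, adjusted p = 0.458). In both, replacement 1 lay within the control values. Their cytoplasmic partner Ush1c (harmonin), a PDZ scaffold, had 378, 375 and 335 in the replacement arrays and 531, 662 and 704 in the control arrays. These did not overlap, and the log2 difference of -0.73 (SE 0.238) missed the threshold (adjusted p = 0.0902). It passed with all 6 arrays as separate replicates. The adaptor Anks4b had 631, 555 and 468 in the replacement arrays and 790, 763 and 798 in the control arrays (-0.52, adjusted p = 0.218). Myo7b, the motor that carries the complex to the tip, had 1159, 635 and 852 in the replacement arrays, all under the 1318, 1253 and 1218 of the control arrays (-0.58, adjusted p = 0.256).

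Cdh17 (LI-cadherin), the cadherin of intestinal cells that lacks the catenin-binding tail of E-cadherin, had 3122, 2725 and 3500 in the replacement arrays and 2554, 2559 and 2727 in the control arrays. The groups overlapped only at replacement 2 and control 3, and the log2 difference was 0.25 (95% interval -0.27 to 0.78, adjusted p = 0.564).

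The class I and VI myosins did not pass either, and none had an unadjusted p under 0.05 by limma. Myo1a, the main class I myosin of the brush border, had 1418, 1247 and 1855 in the replacement arrays, all above the 1107, 1088 and 1110 of the control arrays (log2 difference 0.43, 95% interval -0.14 to 0.998, adjusted p = 0.341). Myo1d (0.29) and Myo6 (-0.14), the motor that moves toward the minus end of actin and draws membrane inward, overlapped between the groups, as did Myo1e (-0.33). For each of these 3 genes another probe set gave a difference of the opposite sign. In the terminal web Myh14, a non-muscle myosin II heavy chain (-0.10), and the spectrins Sptan1 (-0.17) and Sptbn1 (-0.14) had intervals that lay within 1 of 0. Another probe set gave 0.037 for Sptan1, and the other probe sets of Sptbn1 ran from -0.39 to 0.12. Myh14 differed with the array: 1154, 617 and 805 in the replacement arrays, against 992, 825 and 770 in the control arrays.

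**Figure D3:**
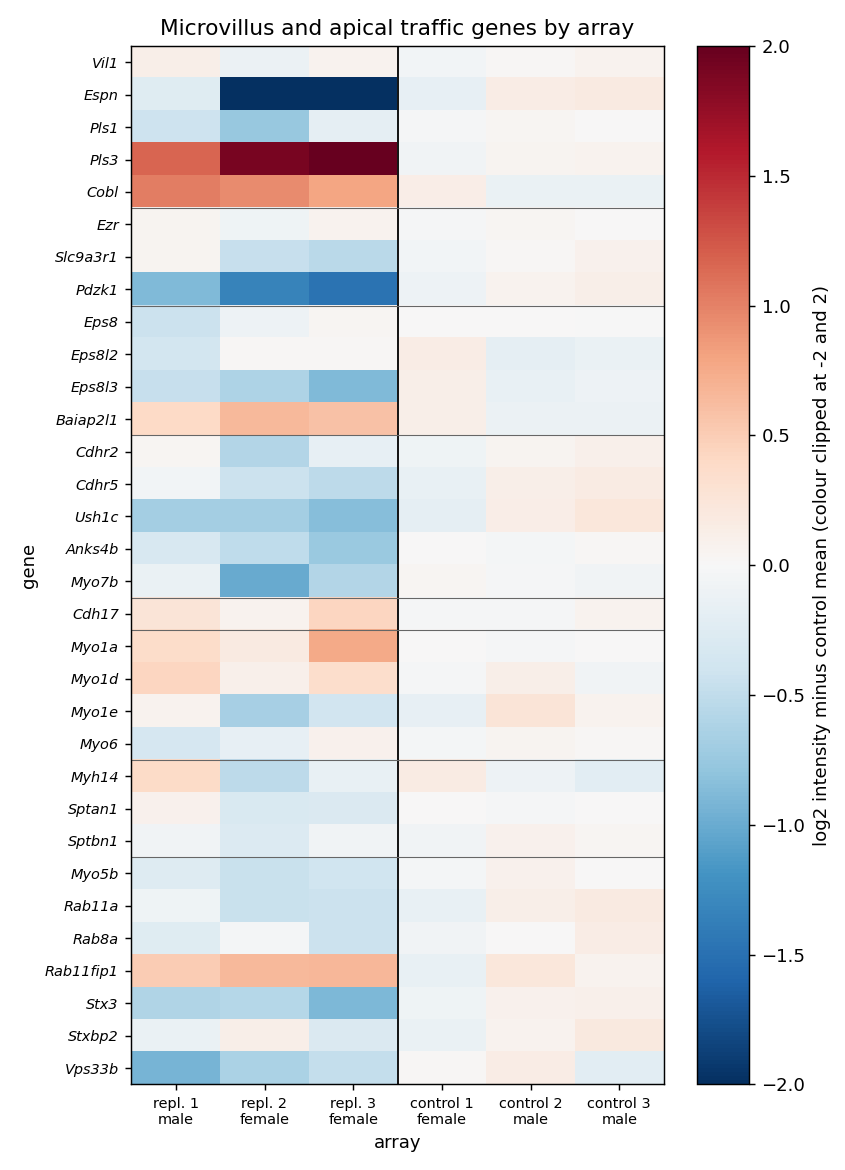
Log2 intensity of each gene (rows, grouped by role between lines) minus its control mean on each array (columns, replacement left and control right, with the sex read from the arrays); red is higher and blue lower, and colours are clipped at -2 and 2. Pls3 and Cobl are red and Pdzk1, Ush1c and Stx3 blue in all replacement arrays, whereas Espn, Slc9a3r1 and Cdhr2 are near the control mean or closest to it in replacement 1.

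Among the 7 genes of apical traffic 6 differences lay below 0, and none passed by limma (at an unadjusted p under 0.05, 1 was higher and 2 were lower). Stx3, the syntaxin of the apical membrane, had 1267, 1302 and 1030 in the replacement arrays, against 1810, 2047 and 2071 in the control arrays, with no overlap (log2 difference -0.69, SE 0.238, adjusted p = 0.107). Its 4 probe sets all lay below 0, from -1.35 to -0.43. In a fit over every kept probe set the one with -1.27 passed (48.5, 63.8 and 44.4 in the replacement arrays and 129, 112 and 130 in the control arrays, limma adjusted p = 0.0262; in that fit Cobl did not pass, adjusted p = 0.0608), and the mean of the Stx3 probe sets passed too (-0.94, adjusted p = 0.0448). Stxbp2, the partner that clasps this syntaxin, had -0.10 by its brightest probe set, with overlapping arrays, and -0.37 and -0.62 by probe sets that may cross-hybridize.

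Vps33b, a subunit of a tethering complex in apical recycling, had 53.7, 65.6 and 73.2 in the replacement arrays and 104, 113 and 88.4 in the control arrays. The groups stood apart, but the log2 difference of -0.68 did not pass (adjusted p = 0.119), except with all 6 arrays as separate replicates (adjusted p = 0.0441). Rab11fip1, an effector of Rab11, had 110, 121 and 123 in the replacement arrays, above the 70.0, 91.0 and 81.0 of the control arrays (0.61, adjusted p = 0.143). Its other probe set gave 0.19 with overlap (64.1, 55.9 and 49.9 in the replacement arrays and 53.8, 42.9 and 47.7 in the control arrays). Myo5b, the motor of the recycling vesicles, had 833, 726 and 754 in the replacement arrays and 962, 1049 and 991 in the control arrays. These did not overlap (-0.36, 95% interval -0.87 to 0.14, adjusted p = 0.370). Rab11a (-0.32) and Rab8a (-0.24), the GTPases of that route, overlapped by their brightest probe sets. The other Rab11a probe set gave -0.70 without overlap (449, 702 and 512 in the replacement arrays and 703, 1110 and 1129 in the control arrays, adjusted p = 0.227), and the other Rab8a probe set gave -0.44 with overlap.

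**Figure D4:**
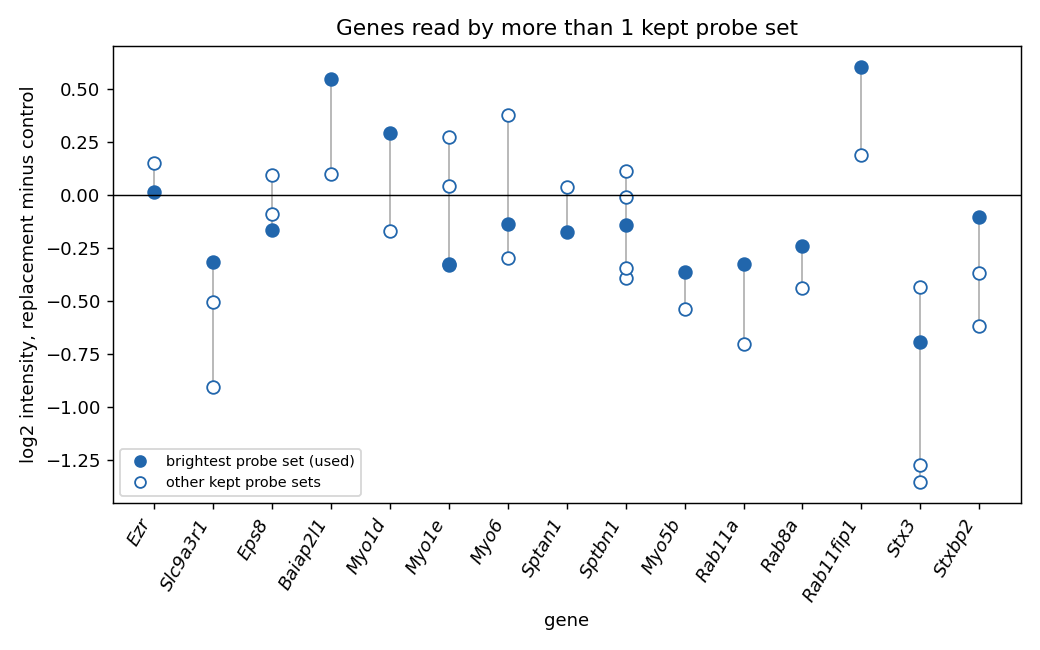
Log2 differences, replacement minus control, by each kept probe set of the 15 genes that had more than 1; filled circles are the brightest probe set, used for the gene, and open circles the others. All 4 probe sets of Stx3 and all 3 of Slc9a3r1 (1 of which may cross-hybridize) lie below 0. Those of Eps8, Myo1d, Myo1e, Myo6, Sptan1 and Sptbn1 lie on both sides.

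Other genes of the same structures were taken from lists chosen with earlier results of these data known. The shares called in these lists therefore cannot show an excess over all genes. Of 22 further microvillus genes tested (26 listed), 3 rose and 2 fell (22.7%, where 9.12% of all genes were called), with a median log2 difference of 0.36. Those that rose were Prom1 (prominin 1, a protein of membrane protrusions; 2.499), Baiap2 (IRSp53, the paralog of Baiap2l1; 1.64 with 1 control array set to the floor, and 0.69 by another probe set) and the class I myosin Myo1c (1.02, by a probe set that related transcripts may share). Radixin, the ezrin paralog encoded by Rdx, fell (29.5, 26.9 and 41.8 in the replacement arrays and 56.5, 85.2 and 74.8 in the control arrays, log2 difference -1.06, adjusted p = 0.0467), as did Plekhg6 (-1.21, adjusted p = 0.0368). Of 14 further terminal web and membrane skeleton genes, 3 rose and none fell by limma (2 were lower at an unadjusted p under 0.05), 21.4% in all, with a median of 0.30: the keratins Krt20 (1.35) and Krt19 (1.27) and the alpha-actinin Actn1 (0.88).

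Of 42 further apical traffic genes 4 rose and 2 fell (14.3%), with a median of 0.05. Anxa2, an annexin of apical membrane platforms (0.98), the raft protein Mal (1.06), the galectin Lgals3 (0.96), which takes part in apical sorting, and the GTPase Rab27a (0.87) rose; another Rab27a probe set gave -0.24, and the mean of its probe sets gave 0.32 (adjusted p = 0.450). Rab8b, the paralog of Rab8a, fell: it had 266, 337 and 400 in the replacement arrays and 738, 790 and 750 in the control arrays (log2 difference -1.19, adjusted p = 0.0196). Rab11fip5, of the family of Rab11fip1, fell as well, with 416, 349 and 506 in the replacement arrays and 1018, 1049 and 1004 in the control arrays (-1.29, adjusted p = 0.0127, by a probe set that related transcripts may share). All 14 calls among these further genes were lost with dim probe sets kept, and 8 were lost when arrays were scaled to their medians. Of the 14, 5 were lost without replacement 1, 11 without replacement 2 and 12 without replacement 3. The calls were also lost without control 1 and without control 2 and control 3 together, fits that left 1 control replicate and called few of all genes. The directions were kept wherever the gene was tested (the filter at 64 left out Baiap2, Mal, Rab27a and Rdx).

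Markers of cell state were measured beside these values. Of 11 enterocyte markers tested 1 fell, the peptidase Anpep, with a median of -0.12. At an unadjusted p under 0.05 by limma 2 were lower, Anpep and Lct (log2 difference -0.87), and 0 higher. Their summed intensities over the list were 24015 to 33781 in replacement and 31297 to 33407 in control arrays. Of 6 markers of proliferating crypt cells 3 rose, with a median of 1.04 and summed intensities of 4213 to 5521 in replacement and 2569 to 2903 in control arrays. Of 6 markers of tuft cells, which also carry dense actin bundles, none passed by limma (1 was higher at an unadjusted p under 0.05). Their summed intensities were 138 to 164 in replacement and 120 to 132 in control arrays, with Il25 below the filter. Single tuft markers lay near the floor of 16, from 4.0 to 38.7 over the arrays, so these sums say little about tuft cells. Of 5 leukocyte markers tested 1 fell, Csf1r (log2 difference -1.44, adjusted p = 0.0143), which carried the summed level of 1076 to 1725 in replacement and 2704 to 3034 in control arrays; the other 4 summed to 305 to 454 in replacement and 239 to 607 in control arrays, which overlap. The summed stem cell markers lay at 2425 to 3142 in replacement and 3394 to 3750 in control arrays, with none of 4 passing by limma or at an unadjusted p under 0.05; without Olfm4 the sums were 310 to 439 in replacement and 385 to 403 in control arrays. Of 6 enteroendocrine markers 1 fell, Sct, with summed intensities of 970 to 1369 in replacement and 1493 to 1738 in control arrays, or 831 to 1082 and 1007 to 1090 without Sct. Of 4 Paneth cell markers 1 rose, Mmp7 (1.30, adjusted p = 0.0440), with sums of 2648 to 4188 in replacement and 2736 to 6737 in control arrays, and Itln1 had -1.09 (unadjusted p = 0.0327). None of 6 goblet cell markers passed by limma or at an unadjusted p under 0.05, with sums of 9360 to 17058 in replacement and 11774 to 14447 in control arrays. Of the 7 epithelial markers Krt19 and Cldn3 rose (1.27 and 1.07). The ratio of the 3' to the 5' Actb control probe set, a sign of RNA quality, was 1.10 to 1.24 in replacement and 1.30 to 1.35 in control arrays, and that of Gapdh 0.66 to 0.71 in replacement and 0.65 to 0.77 in control arrays. The part of these shifts in the values of Pls3, Cobl and Pdzk1 was not tested.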

How the data were processed

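The authors deposited linear intensities of 45101 probe sets on 6 arrays, already scaled: leaving out 2% at each end, the mean of each array was 100, as the values show. The submitters' processing notes name GCRMA and limma without order; how the linear values were summarised is not given. Intensities under 16 were raised to 16 before log2, which compresses differences of dim transcripts. Probe sets reaching 16 on at least 3 arrays stayed in, 22603 of the 34945 with 1 gene symbol. Each gene was read by its brightest probe set over the arrays (12994 genes). Names came from the platform annotation, updated through Entrez identifiers (GRCm38.p6).

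limma 3.58.1 in R 4.3.3 (lmFit, eBayes without trend or robust options) compared replacement minus control on 3 and 2 replicates, with Benjamini-Hochberg adjustment over all genes. SEs come from the moderated fit. Sex was tested as an interaction in the same way. Microarrays have no read depth; their number limits the precision. Figures were drawn with matplotlib 3.10.9. The fit was tested on simulated data. The genes and lists were chosen with earlier results of these data known. Per-array values are given for genes that passed, that differed at least 2-fold, and for Vil1, Espn, Pls1, Ezr, Myo1a, Myo7b, Cdhr2, Cdhr5 and Cdh17 by rule; those of other genes were added after their values were seen. The rule named from the other lists up to 4 genes a list with the smallest p among those that passed; Rdx, Lgals3 and Rab27a were named after their values were seen. Same-numbered samples did not deviate together (correlations of -0.055 to -0.00082 over genes), so the numbers were not taken as pairs.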

Additional observations from a re-analysis of the deposited data

How the results depend on the processing

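In the set of 32 genes 2 were higher and 1 lower. With all 6 arrays as separate replicates 3 were higher and 4 lower, with no filter on dim probe sets 0 and 0 by limma (4 and 7 at an unadjusted p under 0.05), with scaling to the array medians 1 and 1, with the mean of all kept probe sets of a gene 2 and 2, and without control 2 and control 3 together 0 and 0 (3 and 2 at an unadjusted p under 0.05). With the replicate number as a block (replicate block, all 6 arrays) 2 were higher and 4 lower. Leaving out 1 array at a time gave 0 to 2 higher and 0 to 2 lower. Over all genes, 580 higher and 605 lower became 1118 and 1234 with all 6 arrays as separate replicates, 70 and 92 with no filter, 443 and 384 with scaling to the array medians, 994 and 1108 with the replicate block, 3 and 1 without control 2 and control 3 together, and 8 to 827 and 3 to 833 with 1 array left out; where 1 control replicate was left it was assumed to vary like the others. Differences near 0 changed sign as single arrays were left out: Vil1 ran from -0.022 to 0.095, Ezr from -0.017 to 0.061, Eps8l2 from -0.17 to 0.048 and Myh14 from -0.34 to 0.12, and Stxbp2 had 0.032 without control 2 and control 3 together. The cause was not tested. Quantile normalization, a filter at 64, no floor, other eBayes options and sex as a covariate kept the 3 calls. Pls3 and Pdzk1 each passed in 12 and Cobl in 10 of 17 alternatives. The alternatives were also run, after the data were seen, for Cdh1 and the genes called in the other lists (16 of the 17 for Baiap2, Mal, Rab27a and Rdx, which the filter at 64 left out), and marker sums were taken without the brightest or the called genes; Cdh1 kept its direction in all 17 and passed in 11.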
